A study of Mus musculus with 10 samples.

Results

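Markers of 3 tissues that border or lie near the mouse hippocampus were read in hippocampal RNA: 11 genes of the thalamus, 10 of the striatum and 11 of the neocortex. The 32 genes were taken by symbol from the deposited table of 21956 genes, and the rule that names them uses no measured level. The libraries came from 10 mice of the hMapt genotype, which carry human tau, at 6 months of age. Of these, 5 were controls, which the extraction protocol calls control-injected, and 5 had received AAV-circTau6, an adeno-associated virus carrying the circular RNA circTau6, with the series' design giving 80 days after injection. The labels do not say what the control injection held, which promoter drives human tau, whether mouse tau is intact, or the sex of the animals, and both groups share the genotype and the age.

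The hippocampus lies under the neocortex and over the thalamus, with the striatum further forward, so its dissection can take in tissue from each side. Thalamic relay neurons use the glutamate transporter VGLUT2 and keep the transcription factor Tcf7l2 into adult life. Striatal projection neurons carry dopamine receptors and the signalling protein DARPP-32, and neocortical neurons are told apart by layer-specific factors such as Rorb, Cux2, Fezf2 and Tbr1. Few of these genes are exclusive to 1 region: Calb2, Penk and Tac1 are also made by hippocampal interneurons, Drd2 and Calb2 by mossy cells of the dentate hilus, Lamp5 by neurogliaform interneurons, and Fezf2, Tbr1 and Slc17a6 in the subiculum and adjoining cortex. A level above 0 therefore does not by itself show that a neighbouring tissue was present, and the description rests on how levels vary between libraries. In bulk tissue, more cells of a type and more RNA per cell cannot be told apart.

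The promoters of the 3 members whose highest library held more than 2 times the median library are shown, because these genes vary most between libraries. They were 2 of 11 thalamus and 1 of 10 neocortex markers abundant enough to be read this way, against 2.22% of genes over all. Each run is RefSeq sequence on GRCm38.p6, 250 bases before and 50 after an annotated start, written 5′ to 3′ on the gene's strand, and capitals mark a TATAAA box. The Tcf7l2 window is chr19:55741560-55741859 on the plus strand and is the first of 2 listed for the gene, the Tnnt1 window chr7:4515926-4516225 on the minus strand, and the Rspo1 window chr4:124986180-124986479 on the plus strand.
Tcf7l2: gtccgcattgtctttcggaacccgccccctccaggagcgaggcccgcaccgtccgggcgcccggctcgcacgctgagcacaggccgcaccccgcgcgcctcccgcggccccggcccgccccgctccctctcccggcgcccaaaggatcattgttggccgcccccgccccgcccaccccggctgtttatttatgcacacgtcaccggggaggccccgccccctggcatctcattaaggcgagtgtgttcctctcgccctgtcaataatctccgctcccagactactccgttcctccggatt
Tnnt1: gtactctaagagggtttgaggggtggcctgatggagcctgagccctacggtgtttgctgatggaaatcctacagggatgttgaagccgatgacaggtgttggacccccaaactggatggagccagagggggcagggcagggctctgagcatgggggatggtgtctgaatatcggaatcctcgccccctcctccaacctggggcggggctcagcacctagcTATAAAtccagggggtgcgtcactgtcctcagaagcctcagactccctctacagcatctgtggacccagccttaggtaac
Rspo1: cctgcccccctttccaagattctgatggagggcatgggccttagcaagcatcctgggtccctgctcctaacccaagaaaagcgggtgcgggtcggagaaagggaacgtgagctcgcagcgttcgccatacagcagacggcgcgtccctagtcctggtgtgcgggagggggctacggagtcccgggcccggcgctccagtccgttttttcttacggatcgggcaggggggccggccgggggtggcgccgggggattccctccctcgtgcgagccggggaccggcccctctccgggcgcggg
The Tnnt1 window has TATAAA starting 30 bases before the annotated start and 58.3% G and C, while the Tcf7l2 and Rspo1 windows have 70% and 69% and no such box. TATAAA, read on both strands, was in 7 of the 36 windows listed for the 25 members with a RefSeq promoter entry and in 13.6% of all 32851 windows of this length. CTTTGAT, the letters bound by the TCF and LEF factors that Tcf7l2 and Lef1 encode, was in 0 of the 36 member windows and in 3.73% of all windows. These are matches of letters in 300-base windows and say nothing of binding.

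Total counts ran from 14762952 to 17647138 per library, and no library repeated another within counting error. Of 12 markers of dentate gyrus and Ammon's horn, 12 passed the count filter, with a median of 39.1 TPM (a unit corrected for transcript length, used here to set genes beside each other). The median was 20.8 TPM over all tested genes, 12.7 TPM for thalamus and 18.3 TPM for neocortex markers. All 11 thalamus and all 11 neocortex markers passed the filter too, so passing it does not mark the tissue. The summed level of the hippocampal markers was 671 to 781 CPM (counts relative to the scaled library total, used to set libraries beside each other) in control and 665 to 767 CPM in circTau6 libraries. Of 4 cerebellum markers 1 passed the filter, and the highest mean in the list was 0.331 TPM. Of 8 hypothalamus markers Avp and Hcrt, which encode vasopressin and orexin, each had 1 count in 1 library and 0 elsewhere, and 1 passed the filter: Pomc, the precursor of melanocortins, named after its values were seen. Pomc had 26.6 CPM in control replicate 5, 9.60 CPM in circTau6 replicate 2, 7.60 CPM in control replicate 2 and 4.02 CPM in control replicate 4, against 0.34 to 1.77 CPM in the other 6 libraries. Libraries stood apart in other ways that touch results below. Control replicate 2 and circTau6 replicate 5 were nearly without choroid plexus transcripts (Ttr, its transthyretin gene, at 38.6 and 28.0 CPM against 1671 to 4961 CPM elsewhere). CircTau6 replicate 3 had deviations that went with transcript GC content, at a Pearson correlation of 0.29 across 14371 genes, against −0.06 to 0.00 in the other libraries; genes are not independent replicates.

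**Figure D1:**
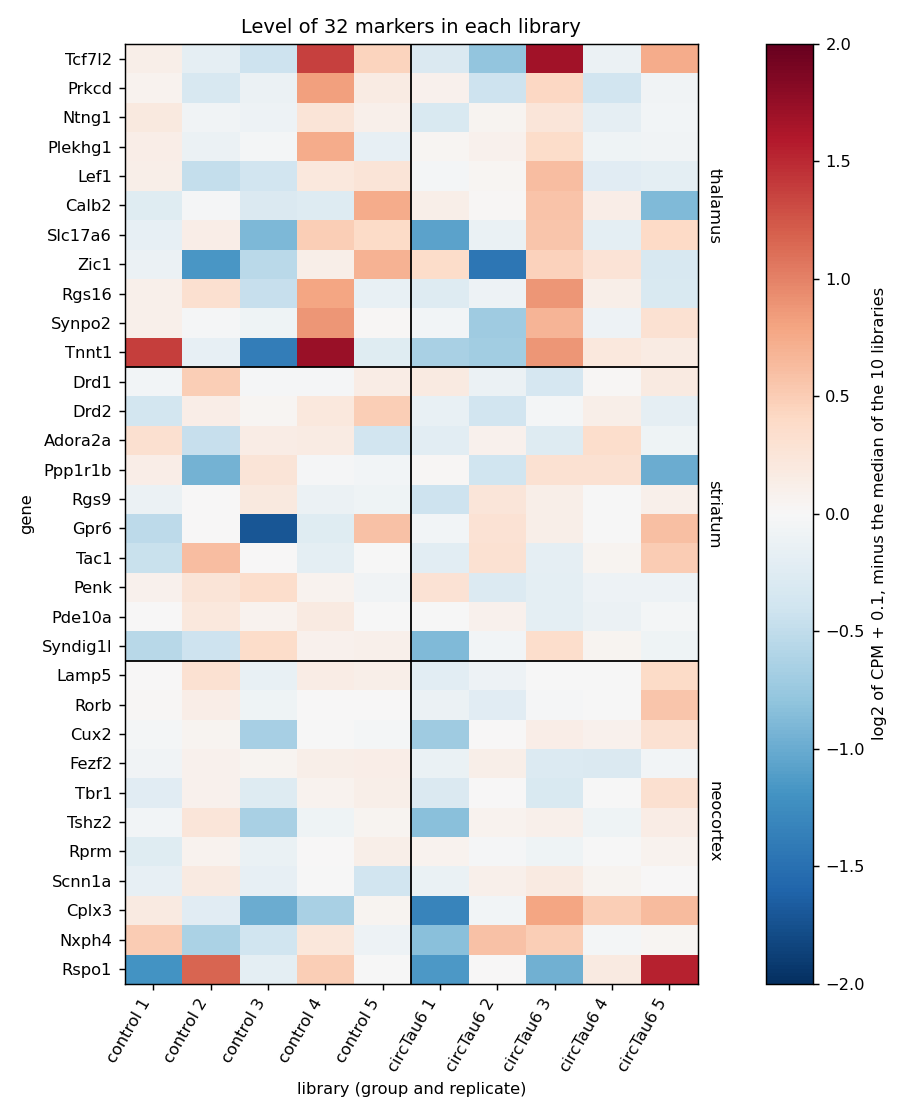
Level of each of the 32 markers (rows, grouped by region) in each of the 10 libraries (columns), as log2 of CPM plus 0.1 minus the median of the 10 libraries, with red above and blue below it. The thalamus rows are reddest in control replicate 4 and circTau6 replicate 3, Ppp1r1b is lowest in circTau6 replicate 5 and control replicate 2, and most striatum and neocortex rows are pale.

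Thalamus markers varied more between libraries than striatum and neocortex markers. Their median ratio of highest to median library was 1.67, against 1.29 for striatum and 1.24 for neocortex markers and 1.14 over all genes. Lists of meningeal and habenula genes had higher ratios, 2.05 and 1.72. For the thalamus markers 2 libraries, 1 of each group, held most of the highest values. Control replicate 4 was the highest library for 5 of 11 markers and circTau6 replicate 3 for 4 of 11, and for 7 of 11 these were the 2 highest. Over all 13851 tested genes with a mean of at least 1 CPM, control replicate 4 was highest for 8.98%, circTau6 replicate 3 for 18.3%, and both were on top for 2.33%. The pair of libraries was singled out after the values were seen. The median over the thalamus markers of log2 level against the median library was 0.74 in control replicate 4, 1.67 times the median library, and 0.57 in circTau6 replicate 3, 1.48 times. The other controls lay between −0.39 and 0.17 and the other circTau6 libraries between −0.13 and −0.06.

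Tcf7l2, the transcription factor that keeps thalamic neuron identity (ENSMUSG00000024985, chromosome 19 from 55741820 to 55933654), had a wider spread between libraries than Lef1 and Zic1, the other transcription factors of the 11 thalamus markers. It had 4.92, 3.98, 3.39, 11.9 and 6.21 CPM in control replicates 1 to 5. In circTau6 replicates 1 to 5 it had 3.68, 2.58, 14.8, 4.18 and 7.69 CPM. Both groups thus held 1 library well above the rest, and the groups overlapped over nearly their whole range. Control replicate 4 had 2.61 times and circTau6 replicate 3 had 3.26 times the median of the 10 libraries. Lef1, the related factor of the same family, varied less, from 3.62 to 7.87 CPM, and was also highest in circTau6 replicate 3.

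Tnnt1, a slow-muscle troponin gene that is also made in thalamic neurons (ENSMUSG00000064179, chromosome 7 from 4504570 to 4516382), had the largest ratio of highest to median library, 3.47. Its control libraries 1 to 5 had 3.30, 1.07, 0.40, 4.22 and 1.00 CPM. Its circTau6 libraries 1 to 5 had 0.74, 0.70, 2.30, 1.41 and 1.36 CPM. These are 7 to 63 counts per library, so counting error is part of the spread. Control replicate 1 was second highest for Tnnt1 although its thalamus level was 0.11, so the members did not all share 1 order of libraries.

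Genes of signalling and structure in thalamic neurons followed the same pair of libraries. Prkcd, the protein kinase C delta of relay and central thalamic neurons, had 48.6 CPM in control replicate 4 and 36.8 CPM in circTau6 replicate 3, against 20.7 to 31.04 CPM in the other 8. Rgs16, a brake on G protein signalling, had 10.7 and 11.4 CPM in these 2 libraries against 4.48 to 7.77 CPM. Synpo2, an actin-binding protein, had 19.3 and 16.8 CPM against 6.32 to 12.9 CPM, and Plekhg1 had 56.0 and 43.5 CPM against 30.0 to 36.8 CPM. For these 4 genes no other library reached the pair.

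Slc17a6, which encodes VGLUT2, was highest in the same pair, at 49.5 CPM in circTau6 replicate 3 and 47.5 CPM in control replicate 4. It was close to them in circTau6 replicate 5 and control replicate 5, at 44.2 and 43.8 CPM, and lowest in circTau6 replicate 1 and control replicate 3, at 16.04 and 18.03 CPM. The same 2 libraries were lowest for Tshz2 and Cux2, cortical markers described below.

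Ntng1, the axonal adhesion protein netrin-G1, had the lowest unadjusted p of the thalamus list (ENSMUSG00000059857, chromosome 3 from 109780040 to 110144011). It had 51.2, 42.7, 42.0, 54.0 and 48.4 CPM in control replicates 1 to 5 and 36.4, 46.5, 53.4, 39.6 and 43.4 CPM in circTau6 replicates 1 to 5. The highest library was only 1.20 times the median, so its range was narrow beside that of Tcf7l2.

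Calb2 and Zic1 departed from the rest. Calb2, the calcium buffer calretinin, was highest in control replicate 5 at 34.1 CPM and next in circTau6 replicate 3 at 30.4 CPM, but at 17.1 CPM in control replicate 4 it lay below the median. Zic1, a zinc finger factor of medial thalamus that meningeal cells also make, was highest in control replicate 5 at 51.2 CPM and lowest in circTau6 replicate 2 and control replicate 2, at 11.5 and 14.1 CPM. A list of 6 meningeal fibroblast genes was lowest in circTau6 replicate 2, at −0.80 against the median library, and highest in circTau6 replicate 3, at 0.94. It was at −0.01 in control replicate 5 and −0.02 in control replicate 2, so it did not share the order of Zic1 there. The part of this list in Zic1 was not tested.

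**Figure D2:**
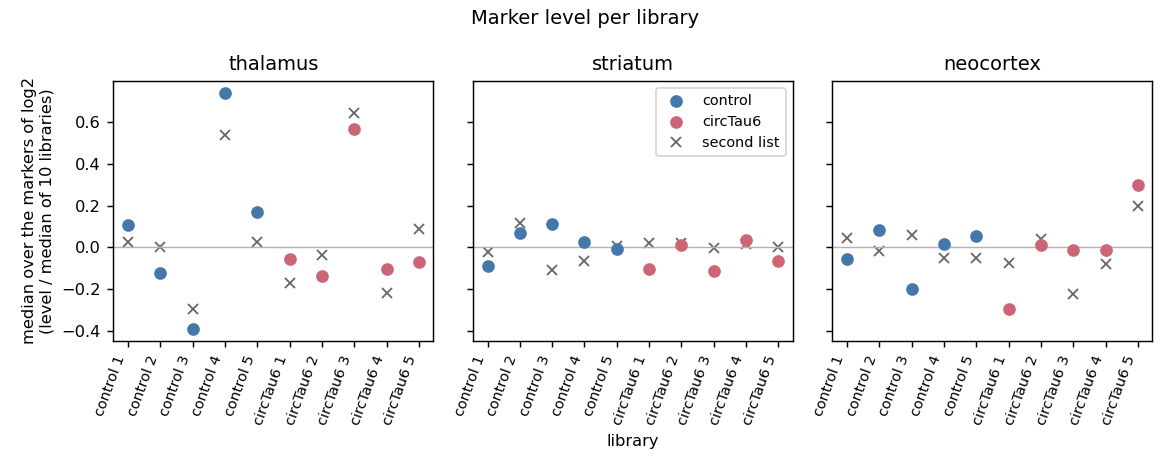
Median over the markers of each region (circles, blue for control and red for circTau6) of log2 level against the median of the 10 libraries, one point per library on the x axis; crosses give the second list of markers for the same region. Thalamus levels stand out in control replicate 4 at 0.74 and circTau6 replicate 3 at 0.57, whereas striatum levels stay between −0.11 and 0.11.

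A second list of 7 other thalamic genes had its highest median levels in the same 2 libraries. Their median level was 0.64 in circTau6 replicate 3 and 0.54 in control replicate 4, against −0.29 to 0.09 in the others. Of the 7 genes, 5 passed the count filter, each with a mean of at least 1 CPM. For 2 of these 5 the pair were the 2 highest libraries, against 2.33% of all genes at that level. Single genes of the 7 ran from −0.12 to 3.28 in control replicate 4 and from −0.02 to 4.08 in circTau6 replicate 3. Not all 7 were thus above the median library in the pair. Gbx2 and Shox2, transcription factors of thalamic nuclei, did not pass the filter and were named after their values were seen. Gbx2 had 46 counts in circTau6 replicate 3 and 9 in control replicate 4, and 0 to 2 in the other libraries. Shox2 had 66 and 62 counts in this pair, 28 in control replicate 1, 25 in circTau6 replicate 5 and 0 to 7 in the others. The pair differed in the habenula, which sits on the thalamus beside the hippocampus. The level of 6 habenula genes was 0.96 in circTau6 replicate 3, 0.29 in control replicate 4 and −0.40 to 0.25 in the others, and Chrnb4, a nicotinic receptor subunit of the medial habenula, had 138 counts in circTau6 replicate 3 and 1 to 41 in the rest.

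The thalamus level of circTau6 replicate 3 was as large with transcript GC content taken into account. With each library's trend over GC content removed, an alternative chosen after seeing the data, the level was 0.66 in place of 0.57, and that of control replicate 4 was again 0.74. Hippocampal markers were at −0.01 in circTau6 replicate 3 and at 0.02 in control replicate 4. Lists of 6 meningeal and 6 endothelial genes were both highest in circTau6 replicate 3, at 0.94 and 0.21, whereas in control replicate 4 they were at −0.33 and −0.20; their part in the thalamus level was not tested.

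**Figure D3:**
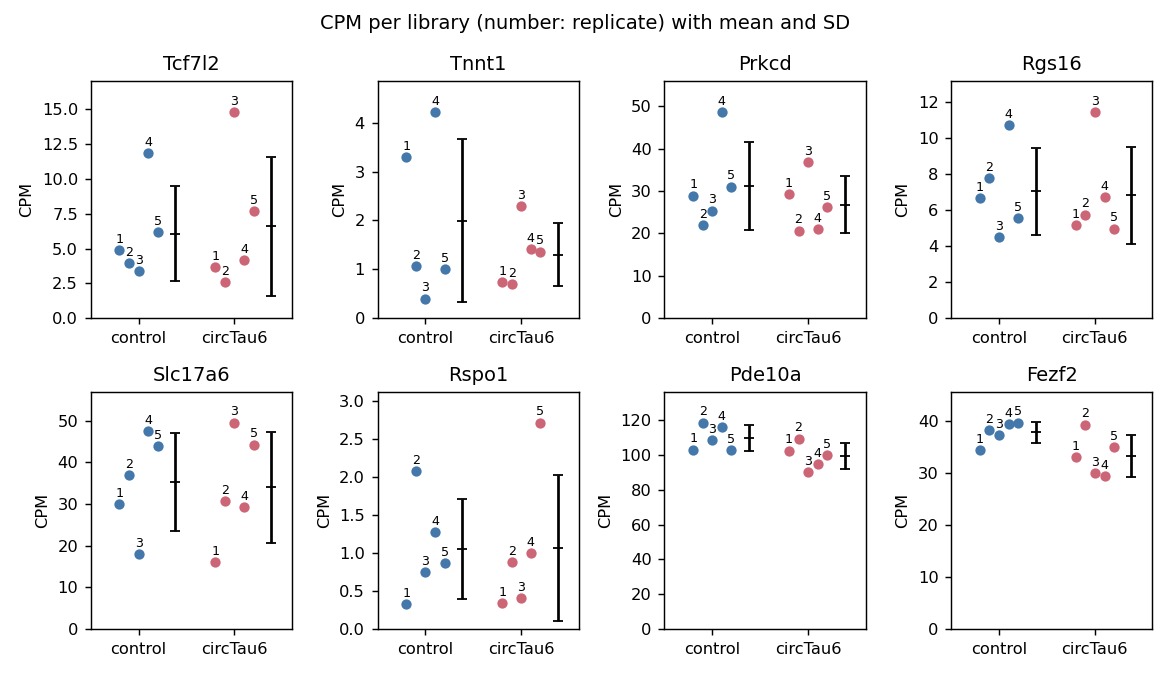
CPM of 8 markers in each library, with control in blue, circTau6 in red, replicate numbers above the points, and the mean with 1 SD (n = 5) to the right of each group; every y axis starts at 0. Control replicate 4 and circTau6 replicate 3 lead the panels of Tcf7l2, Prkcd, Rgs16 and Slc17a6, Rspo1 is led by circTau6 replicate 5 and control replicate 2, and in all 8 panels the groups overlap.

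The median level of the striatum markers lay between −0.09 and 0.11 in controls and between −0.11 and 0.04 in circTau6 libraries, and 0 of 9 tested members had a library at 2 times the median, against 2.22% of genes over all. Single members went both ways within a library, and their median ratio of highest to median library, 1.29, was above the 1.14 of all genes. The dopamine receptors were low: Drd1, of the direct pathway, averaged 2.90 TPM, Drd2, of the indirect pathway, 1.74 TPM, and Adora2a, the adenosine receptor that marks the indirect pathway, 1.90 TPM. Gpr6, an orphan receptor of indirect-pathway neurons, averaged 0.586 TPM, with 1 to 10 counts per library, and was the 1 of 32 members under the count filter. By TPM these 4 receptors were among the 6 least abundant of the 32 members, with Rspo1 and Nxph4 the other two.

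The neuropeptide genes and the signalling genes of the list were more abundant. Penk, the enkephalin precursor, averaged 25.3 TPM and ranged from 10.5 to 16.2 CPM. Tac1, the substance P precursor, averaged 16.0 TPM and was highest in control replicate 2 and circTau6 replicate 5, at 9.14 and 8.43 CPM against 4.33 to 7.32 CPM. Rgs9, the regulator of G protein signalling of the striatum, ranged from 10.7 to 16.9 CPM. Syndig1l, a transmembrane protein of striatal neurons, ranged from 2.04 to 4.99 CPM.

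Pde10a, a cyclic nucleotide phosphodiesterase, had the lowest unadjusted p of all 31 tested members (ENSMUSG00000023868, chromosome 17 from 8525372 to 8986648). It had 103.1, 118.6, 108.4, 116.0 and 102.7 CPM in control replicates 1 to 5. In circTau6 replicates 1 to 5 it had 102.5, 109.4, 90.1, 94.8 and 99.98 CPM. Of the circTau6 libraries 4 of 5 lay below every control, and replicate 2 lay among the controls. For circTau6 replicate 1 the gap was small, at 102.5 CPM against 102.7 CPM in control replicate 5. Its difference on the log2 scale, circTau6 minus control, was −0.14 ± 0.06 (SE). By edgeR the unadjusted p was 0.029 and the adjusted p 0.981, so the difference did not pass.

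Ppp1r1b, which encodes DARPP-32, was the most abundant member at 81.7 TPM and went with the choroid plexus list rather than with the other striatum genes (ENSMUSG00000061718, chromosome 11 from 98348404 to 98357796). It was picked out after its values were seen. It had 70.4, 33.2, 76.9, 63.3 and 61.5 CPM in control replicates 1 to 5. In circTau6 replicates 1 to 5 it had 64.8, 48.7, 79.5, 78.8 and 32.1 CPM. The 2 lowest libraries, circTau6 replicate 5 and control replicate 2, were those nearly without choroid plexus transcripts, and the next, circTau6 replicate 2, had the third lowest choroid plexus level, −0.97 against the median library. The choroid plexus epithelium is known to make DARPP-32. All 12 choroid plexus markers passed the count filter, and their summed level was 84.1 to 4762 CPM in control and 74.3 to 5735 CPM in circTau6 libraries; its part in Ppp1r1b was not tested. The second striatum list, of 10 genes, had levels of −0.11 to 0.12 and did not show this order.

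**Figure D4:**
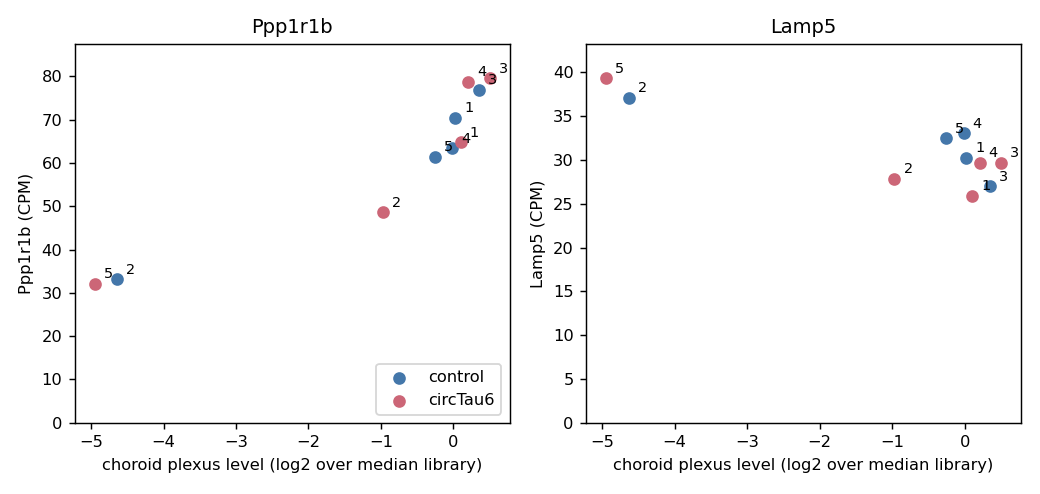
CPM of Ppp1r1b (left) and Lamp5 (right) against the median level of 12 choroid plexus genes on a log2 scale, one point per library, blue for control and red for circTau6, with replicate numbers. Ppp1r1b is at 32.1 and 33.2 CPM in the 2 libraries near −5 and at 48.7 CPM in circTau6 replicate 2, whereas Lamp5 has its 2 highest values, 39.3 and 37.1 CPM, in the 2 libraries near −5.

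Neocortex markers had a pattern of their own, with circTau6 replicate 5 at the top and circTau6 replicate 1 and control replicate 3 at the bottom. CircTau6 replicate 5 was the highest library for 5 of 11 markers, and circTau6 replicate 1 the lowest for 5 of 11. The shares of all genes with these libraries highest or lowest were not computed, so these counts alone are not a result about the markers. The median level was 0.30 in circTau6 replicate 5, −0.30 in circTau6 replicate 1 and −0.20 in control replicate 3, and between −0.06 and 0.08 in the others. Of the 10 members with a mean of at least 1 CPM, 4 had control replicate 2 and circTau6 replicate 5 as the 2 highest libraries, against 4.41% of all genes at that level, and 4 had control replicate 3 and circTau6 replicate 1 as the 2 lowest, against 3.50%. Both pairs hold 1 library of each group, and both were singled out after the values were seen. The first pair is also the pair poor in choroid plexus transcripts, and a list of 8 interneuron genes was highest in it, at 0.16 in circTau6 replicate 5 and 0.14 in control replicate 2 against −0.05 to 0.04 elsewhere. The part of either in the neocortex level was not tested.

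Rspo1, a secreted activator of Wnt signalling, was the neocortex member with the widest spread (ENSMUSG00000028871, chromosome 4 from 124986430 to 125009099). It had 0.32, 2.08, 0.75, 1.27 and 0.87 CPM in control replicates 1 to 5. In circTau6 replicates 1 to 5 it had 0.34, 0.88, 0.40, 1.00 and 2.72 CPM. The highest library, circTau6 replicate 5, had 3.12 times the median, on 5 to 40 counts per library.

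Among genes of the upper layers and layer 4, Lamp5 and Rorb had circTau6 replicate 5 and control replicate 2 on top. Lamp5, a membrane protein of superficial neurons and interneurons, had 39.3 CPM in circTau6 replicate 5 and 37.1 CPM in control replicate 2, against 25.9 to 33.1 CPM in the others. Rorb, the nuclear receptor of layer 4, had 32.3 and 24.1 CPM in this pair against 18.9 to 22.4 CPM. Cux2, the homeodomain factor of upper layers, was lowest in circTau6 replicate 1 and control replicate 3, at 22.3 and 23.1 CPM, and had 35.5 to 45.0 CPM elsewhere. Scnn1a, a sodium channel subunit of layer 4, ranged only from 7.08 to 10.4 CPM.

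Among deep-layer genes, Tshz2 and Cplx3 had circTau6 replicate 1 and control replicate 3 at the bottom. Tshz2, a zinc finger factor of retrosplenial and deep-layer neurons, was the most abundant neocortex marker at 61.7 TPM. It had 62.1 CPM in circTau6 replicate 1 and 70.7 CPM in control replicate 3, against 104.2 to 131.2 CPM in the other 8 libraries. Cplx3, the complexin of subplate neurons, was lowest in the same pair at 1.81 and 2.30 CPM and highest in circTau6 replicate 3 at 8.21 CPM. Nxph4, a neurexophilin of layer 6b, had only 7 to 21 counts per library. Tbr1, the layer 6 factor, ranged from 49.4 to 76.2 CPM with its highest value in circTau6 replicate 5, and Rprm, a cell cycle inhibitor used as a layer 6 marker, only from 10.8 to 13.8 CPM.

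Fezf2, the master factor of corticospinal neurons of layer 5, had the lowest unadjusted p of the neocortex list (ENSMUSG00000021743, chromosome 14 from 12342094 to 12348189). It had 34.3, 38.1, 37.3, 39.2 and 39.6 CPM in control replicates 1 to 5 and 33.0, 39.2, 29.9, 29.3 and 34.8 CPM in circTau6 replicates 1 to 5. Of the circTau6 libraries 3 of 5 lay below every control. Its log2 difference was −0.18 ± 0.08 (SE). By edgeR the unadjusted p was 0.033 and the adjusted p 0.981, so it did not pass either. The second neocortex list, of 9 genes, was also highest in circTau6 replicate 5, at 0.20, but was lowest in circTau6 replicate 3, at −0.22, and did not share the low pair.

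Between circTau6 and control libraries, 0 of 31 tested markers passed edgeR's quasi-likelihood test (two-sided, adjusted over all 14396 genes tested), where 0.0% of all genes did. At an unadjusted p under 0.05 there were 0 of 11 thalamus, 1 of 9 striatum and 1 of 11 neocortex markers, both lower after circTau6, against 4.42% of all genes tested (371 higher and 266 lower). Over all genes DESeq2 called 14 and limma voom 0, neither called a member, and the lowest adjusted p of a member over all alternatives run was 0.734. The median log2 fold change was −0.05 for thalamus, −0.03 for striatum and 0.03 for neocortex markers, and 0.00 over all tested genes. No marker had all 5 circTau6 libraries above or below every control, which held for 0.841% of all genes.

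The differences with the largest size had wide errors. Tnnt1 had a log2 fold change of −0.60 ± 0.57 (SE), Cplx3 0.56 ± 0.37 (SE) and Drd2 −0.26 ± 0.23 (SE). For Tcf7l2 the control mean was 6.07 CPM ± 3.40 (SD, n = 5). The circTau6 mean was 6.59 CPM ± 4.98 (SD, n = 5), the log2 difference 0.12 ± 0.54 (SE) and the adjusted p from edgeR 0.994. Without control replicate 4 its log2 fold change was 0.52, and without circTau6 replicate 3 it was −0.42, so a single library turned its sign. For Tnnt1 the value was −0.13 without control replicate 4. For Tcf7l2 a 2-fold higher level after circTau6 lies within 2 SE of the estimate, so these data do not show that the groups are alike. The authors' deposited table gives a p under 0.05 for 1 of the 32 members, Cplx3 with a p of 0.0387, and an FDR under 0.05 for 0. The share of all genes with such a p in that table was not computed, so the count is not a result about Cplx3.

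Of the second lists, 0 of 5 tested thalamus, 0 of 9 striatum and 0 of 9 neocortex genes passed the test over all genes, and 0, 0 and 2 had an unadjusted p under 0.05, both lower after circTau6. Leaving out control replicate 4 and circTau6 replicate 3 together, edgeR called 0 genes, with 361 at an unadjusted p under 0.05 against 637 with all libraries, and the thalamus median was −0.11. Leaving out the pair poor in choroid plexus transcripts, it called 3 genes, none of them a member, with 778 at an unadjusted p under 0.05. The neocortex median was then 0.02. Both refits had fewer libraries than the main test.

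**Figure D5:**
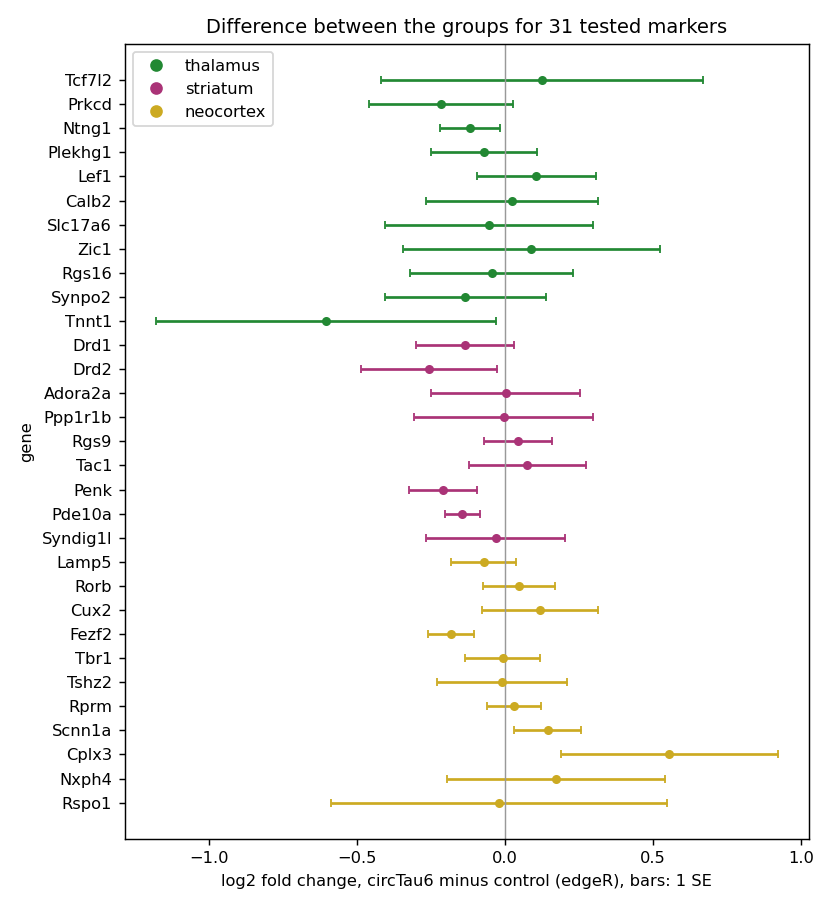
Log2 fold change (x axis, circTau6 minus control, edgeR) of each of the 31 tested markers (y axis), coloured by region, with bars of 1 SE. Points lie on both sides of 0 in each region, from −0.60 for Tnnt1 to 0.56 for Cplx3, and Pde10a and Fezf2 have short bars below 0.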

How the data were processed

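Hippocampal RNA of 10 mice was depleted of ribosomal RNA and sequenced as strand-specific 150 bp pairs, per the labels' protocols. Per the file headers, the authors deposited counts and TPM per gene and library, their own mean TPM, log2 fold change, p-value and FDR. StringTie 1.3.1 and RSEM are listed, without their roles, per the submitters' processing notes. Aligner and build: not given in the sources used here. In the deposited counts 108 entries were 0 beside a TPM above 0, so they may be rounded estimates.

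Groups came from the treatment label. Counts were tested with edgeR 4.0.16 (R 4.3.3) as deposited: filterByExpr, TMM, robust quasi-likelihood F test, Benjamini-Hochberg adjustment over 14396 genes, threshold 0.05. The SE is the log2 fold change over the root of F. Levels are log2 of CPM + 0.1 against the median of the 10 libraries. Alternatives were DESeq2 1.42.0, limma 3.58.1 voom, other scaling, no filter, a replicate block and leaving out libraries. Replicate numbers were not taken as pairs. Deviations from the group means correlated at −0.08 to 0.14 between same-numbered libraries, with 3 of 5 above 0.1. Those of control replicate 2 and circTau6 replicate 5 correlated at 0.58. These correlations do not settle whether the numbers mark pairs. The edgeR test of circTau6 against control was tried on simulated data for 14396 genes. It found 52% of 50 genes set to 1.5-fold and 90% of 50 set to 2-fold, with 6 false calls in all. Recovery of the markers themselves was not tested. The median ratio of highest to median library was 1.67 for thalamus markers and 1.14 over all genes. At the shallowest library 3 counts equal 0.203 CPM, counting error only. P-values rest on the spread among the 5 libraries of a group; the labels do not say whether litters or days were shared.

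The members and lists were chosen with earlier results of these data known. Values in every library are given for members with a mean of at least 1 CPM and a highest library at 2 times the median or more, and for the lowest p of each list; Ppp1r1b, Gbx2, Shox2, Pomc and other single values were added after the values were seen. Coordinates are those of GENCODE M21 (GRCm38), by gene ID.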

Additional observations from a re-analysis of the deposited data

Results flagged for a closer look

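In 11 of 70 groups of 5 libraries examined, the gap from 1 library to its nearest neighbour took up more than 0.71 of the whole range. Chance picks out about 5 in 100 if values are normal and the groups independent. CPM of genes that vary together do not meet this, and the share over all genes was not computed. The count is therefore not a result about the members. Of the thalamus markers, Plekhg1 had 56.0 CPM in control replicate 4, with the other controls at 30.0 to 36.8 CPM, and Synpo2 had 19.3 CPM there, with the others at 9.82 to 11.2 CPM. In circTau6 replicate 3 Lef1 had 7.87 CPM, with the other circTau6 libraries at 4.30 to 5.21 CPM, and Rgs16 had 11.4 CPM, with the others at 4.97 to 6.71 CPM. The thalamus level of circTau6 replicate 3, 0.57 on the log2 scale, stood apart from −0.13 to −0.06 in its group. Calb2 had 34.1 CPM in control replicate 5, against 16.6 to 20.2 CPM.

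Among the other markers, Penk had 15.6 CPM in circTau6 replicate 1, against 10.5 to 11.9 CPM. In circTau6 replicate 5 Lamp5 had 39.3 CPM against 25.9 to 29.7 CPM, Rorb 32.3 CPM against 18.9 to 22.02 CPM, and Rspo1 2.72 CPM against 0.34 to 1.00 CPM. The 1 low case was Cux2 in control replicate 3, at 23.1 CPM against 35.5 to 38.2 CPM.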

How the results depend on the processing

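The number of genes called between the groups over the whole table was 0 with edgeR, 14 with DESeq2, 2 with no low-count filter, 4 with the replicate block and 3 without control replicate 2 and circTau6 replicate 5 together, and 0 to 4 when 1 library was left out (1 without control replicate 1, 1 without control replicate 3 and 4 without circTau6 replicate 5). No member was called in any of these. With 1 library left out, the median log2 fold change was −0.23 to 0.091 for thalamus, −0.14 to 0.053 for striatum and −0.071 to 0.13 for neocortex markers. The deposited TPM in place of CPM gave striatum levels of 0.039 for control replicate 3 and 0.028 for circTau6 replicate 5. Of 31 members, 11 kept their sign in every alternative, Pde10a and Fezf2 among them. The alternatives reuse the same libraries and these 2 genes were picked by their p, so this adds no support to their differences. The share over all genes was not computed. Sign changes came with DESeq2 for Rspo1 (0.0015); with voom for Tcf7l2 (−0.29), Lef1 (−0.0018), Rorb (−0.0076) and Nxph4 (−0.0027); with the replicate block for Tcf7l2 (−0.019); without control replicate 4 and circTau6 replicate 3 together for Tcf7l2 (−0.034), Plekhg1 (0.035), Lef1 (−0.011), Calb2 (−0.20), Rgs9 (−0.0048), Tbr1 (0.080) and Rspo1 (0.26); and without control replicate 2 and circTau6 replicate 5 together for Tcf7l2 (−0.059), Zic1 (−0.024), Rgs16 (0.085), Adora2a (−0.082), Rorb (−0.075) and Tshz2 (0.017). With 1 library left out the range was −0.42 to 0.52 for Tcf7l2, −0.36 to 0.0034 for Prkcd, −0.16 to 0.12 for Plekhg1, −0.077 to 0.19 for Lef1, −0.14 to 0.26 for Calb2, −0.23 to 0.13 for Slc17a6, −0.093 to 0.37 for Zic1, −0.32 to 0.16 for Rgs16, −0.33 to 0.091 for Synpo2, −0.11 to 0.10 for Adora2a, −0.16 to 0.15 for Ppp1r1b, −0.017 to 0.14 for Rgs9, −0.037 to 0.27 for Tac1, −0.17 to 0.12 for Syndig1l, −0.10 to 0.11 for Rorb, −0.11 to 0.052 for Tbr1, −0.12 to 0.13 for Tshz2, −0.017 to 0.069 for Rprm and −0.69 to 0.39 for Rspo1. The cause of these sign changes was not tested. The 2 pairs left out together and the GC trend were chosen after seeing the data. Depth limits Gpr6, with at most 10 counts in a library.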

Other observations

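Foxp2, a transcription factor of layer 6 that thalamic neurons also make, was placed in the second neocortex list but was highest in a library high in thalamus markers. It had 139 counts in circTau6 replicate 3, 89 in circTau6 replicate 5 and 88 in control replicate 4, with 76 in control replicate 5 and 32 to 53 in the other 6 libraries. It was picked out after its values were seen.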
